A study of Mus musculus with 10 samples.

Results

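The 10 core genes of the circadian clock, *Arntl* (also called *Bmal1*), *Clock*, *Per1*, *Per2*, *Per3*, *Cry1*, *Cry2*, *Nr1d1*, *Nr1d2*, and *Dbp*, were examined for chromatin accessibility in group 2 innate lymphoid cells (ILC2s), lymphocytes without antigen receptors that secrete type 2 cytokines. Accessibility was measured by ATAC-seq, in which a transposase cuts open chromatin and the cuts are counted in each open chromatin region (OCR). An OCR was taken as a clock gene OCR when its centre lay inside a listed gene, or when the transcription start site (TSS) nearest to its centre belonged to one. This gave 34 of 50039 OCRs, 19 with the centre inside a listed gene and 29 with the nearest TSS at one. All 34 were among the 49981 OCRs with at least 1 count, which were tested. *Cry1* had 7 OCRs, *Arntl* and *Nr1d1* had 5 each, *Per1* and *Dbp* had 4 each, *Per3* had 3, *Per2* and *Cry2* had 2 each, and *Clock* and *Nr1d2* had 1 each. Promoter OCRs, centred no more than 1000 bp before or 100 bp after a TSS, numbered 11, and 23 lay elsewhere.

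Tissue sources were small intestine (SI), pancreas, lung, large intestine (LI), and bone marrow (BM) of wild-type male C57BL/6 mice aged 6 weeks, with 2 libraries per tissue and 50000 cells per library. Each pool took 16 mice for the lung, BM, or pancreas and 10 mice for either intestine. BM ILC2s were gated as Lin–ST2+CD25+, those of LI, lung, and pancreas as Lin–CD45+CD127+ST2+CD25+, and those of SI as Lin–KLRG1+ cells with CD45, CD127, and a reduced level of Thy1. BM was flushed and sorted on its own instrument, whereas the other tissues were dissociated with enzymes and sorted on another, so gate, preparation, and tissue cannot be told apart. The time of day of collection, to which clock genes are sensitive, is not given in the sources used here.

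The clock is a feedback loop of transcription. CLOCK and ARNTL form a dimer that binds E-boxes and activates the *Per*, *Cry*, *Nr1d1*, *Nr1d2*, and *Dbp* genes. The PER and CRY proteins then repress that dimer, NR1D1 and NR1D2 (REV-ERB alpha and beta) repress *Arntl* at ROR elements, and DBP drives output genes through D-boxes. Nearly all cells, immune cells included, run this loop, and its phase is set by light, feeding, hormones, and stress.

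Depth ranged from 10282987 (pancreas 2) to 32797872 counts (lung 2) per library. Replicates differed by more than counting noise, with a chi-square of 12.8 to 56.0 per degree of freedom over all OCRs. Reads of PCR products are not independent molecules, so counting noise is a lower limit of the error. Of 10 ILC2 marker genes, 9 had a promoter OCR, whose summed level lay between 274 and 348 CPM (counts scaled to a common library size with TMM factors) in the 5 tissues. *Klrg1* was at 8.14 CPM in BM against 29.5 to 54.2 elsewhere, and *Il1rl1*, which encodes ST2, was at 2.94 in SI and 6.53 in LI against 17.8 to 21.1 elsewhere. Of T cell markers 2 of 4 had a promoter OCR (summed 4.82 to 8.99 CPM), of myeloid markers 1 of 5 (*Spi1*, 0.664 to 5.74), and of epithelial markers 1 of 3 (*Cdh1*, 3.22 to 7.75). Markers of B cells, ILC1 or NK cells, ILC3s, mast cells, and acinar cells had none.

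OCRs are named here by the distance of their centre from the nearest TSS of their gene, with negative values upstream of that TSS. For a gene with several TSSs, the nearest need not be the first. The sequences around the short motifs of the clock loop are shown first for a part of the OCRs whose level differed between tissues. The sequences are on the strand of the gene, from the RefSeq genome GRCm38 (mm10), with the motif in capitals. The motifs were the E-box CACGTG, its variant CACGTT, which reads AACGTG on the other strand, the ROR element core TAGGTCA or TGGGTCA, the D-box TTACGTAA, TTATGTAA, or TTACATAA, of which the last 2 are reverse complements of each other, and the cAMP response element (CRE) TGACGTCA. *Per1* holds E-boxes at -3936 and -136 bp and a CRE at -1824 bp, and *Dbp* holds a pair of ROR element cores at its promoter. *Per3* 38601 bp also holds an E-box, outside the stretch shown. Of the OCRs that differed and are not shown, *Nr1d1* -334 bp holds an E-box and its variant, and *Nr1d1* -8024 bp an E-box. *Cry1* 23093 and *Per3* 37577 bp, also not shown, hold ROR element cores.
*Per1* -3936 bp, E-boxes, chr11:69094853-69095102, plus strand: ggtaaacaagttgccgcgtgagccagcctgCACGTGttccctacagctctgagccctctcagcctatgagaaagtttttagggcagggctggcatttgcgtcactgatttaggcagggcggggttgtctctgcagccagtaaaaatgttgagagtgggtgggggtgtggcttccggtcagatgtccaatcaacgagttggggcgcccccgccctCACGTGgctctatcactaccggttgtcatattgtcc
*Per1* -1824 bp, CRE, chr11:69097156-69097255, plus strand: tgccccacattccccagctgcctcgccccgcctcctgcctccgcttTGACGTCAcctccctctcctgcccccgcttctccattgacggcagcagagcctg
*Per1* -136 bp, E-box, chr11:69098736-69098835, plus strand: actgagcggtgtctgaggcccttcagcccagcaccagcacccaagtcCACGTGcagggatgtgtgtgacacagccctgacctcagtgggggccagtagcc
*Dbp* -214 bp, ROR element cores, chr7:45704824-45704935, plus strand: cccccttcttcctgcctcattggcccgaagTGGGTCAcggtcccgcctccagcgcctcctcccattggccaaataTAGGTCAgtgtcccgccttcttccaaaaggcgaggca
*Arntl* -23466 bp, ROR element core, chr7:113183877-113183977, plus strand: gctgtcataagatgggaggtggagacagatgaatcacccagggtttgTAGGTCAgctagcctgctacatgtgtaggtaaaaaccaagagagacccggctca
*Per3* 38601 bp, E-box variant, chr4:151006023-151006122, minus strand: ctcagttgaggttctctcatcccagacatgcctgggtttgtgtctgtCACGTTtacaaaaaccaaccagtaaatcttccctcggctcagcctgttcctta
*Nr1d1* 2386 bp, E-box, chr11:98772991-98773090, minus strand: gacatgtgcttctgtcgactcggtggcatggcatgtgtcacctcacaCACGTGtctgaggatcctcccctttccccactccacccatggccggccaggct

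A second set shows OCRs that carry the motifs and were not called in the test of the tissue difference, although *Per3* -101 and *Nr1d2* 264 bp were called higher in BM against the mean of the others. It includes the promoters through which the loop is known to act on *Per2*, *Per3*, *Cry1*, and *Arntl*, where for *Arntl* a short stretch around the ROR element core is given. *Nr1d1* 1411 bp also holds a further E-box and a D-box, outside the stretch shown.
*Per2* -155 bp, D-box and E-box variant, chr1:91459309-91459479, minus strand: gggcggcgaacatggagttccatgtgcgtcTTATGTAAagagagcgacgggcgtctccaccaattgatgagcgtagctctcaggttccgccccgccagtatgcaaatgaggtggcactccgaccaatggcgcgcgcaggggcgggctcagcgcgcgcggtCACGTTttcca
*Per3* -101 bp, D-boxes, chr4:151044786-151044900, minus strand: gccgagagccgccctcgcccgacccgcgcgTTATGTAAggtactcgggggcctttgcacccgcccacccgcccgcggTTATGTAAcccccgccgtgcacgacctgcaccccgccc
*Cry1* -136 bp, E-box variant and E-box, chr10:85185071-85185171, minus strand: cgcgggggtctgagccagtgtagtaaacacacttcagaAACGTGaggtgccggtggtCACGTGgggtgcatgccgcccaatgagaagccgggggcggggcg
*Arntl* -103 bp, ROR element core, chr7:113207531-113207557, plus strand: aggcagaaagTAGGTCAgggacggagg
*Nr1d1* 1411 bp, E-boxes, chr11:98773819-98773919, minus strand: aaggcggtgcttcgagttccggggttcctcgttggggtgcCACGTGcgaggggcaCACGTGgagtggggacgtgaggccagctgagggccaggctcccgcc
*Nr1d2* 264 bp, E-box and D-box, chr14:18238575-18238708, minus strand: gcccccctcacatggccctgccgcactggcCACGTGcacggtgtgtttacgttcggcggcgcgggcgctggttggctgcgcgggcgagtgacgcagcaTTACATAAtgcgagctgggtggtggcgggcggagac
*Dbp* 2535 bp, E-boxes and E-box variant, chr7:45707682-45707860, plus strand: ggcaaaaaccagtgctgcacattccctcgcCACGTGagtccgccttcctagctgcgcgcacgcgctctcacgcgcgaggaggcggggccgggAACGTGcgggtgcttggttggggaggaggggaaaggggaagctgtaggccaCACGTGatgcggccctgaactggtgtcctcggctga

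Within the 500 bases around the centre, on both strands, an E-box was found in 10 of the 34 clock gene OCRs and in 10.2% of all OCRs. The E-box variant was found in 6 (8.41% of all), a ROR element core in 6 (12% of all), a D-box in 5 (1.74% of all), and a CRE in 1 (1.72% of all). Among promoter OCRs, 3 of 11 held an E-box (14.1% of all promoter OCRs), 4 the variant (9.40%), 2 a ROR element core (7.70%), 2 a D-box (0.81%), and 0 a CRE (3.76%). *Nr1d1* had E-boxes in 4 of its 5 OCRs, including 3 matches in the one at 1411 bp. *Per3* had 2 copies of TTATGTAA at its promoter. These matches are letters in a sequence and do not show that a factor was bound.

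The tissue difference was called at an adjusted p under 0.05, over all OCRs, in edgeR's quasi-likelihood test. It was called for 15 of the 34 clock gene OCRs, or 44.1%, against 44.2% of all OCRs. The calls covered 4 of 11 promoter OCRs (30.9% of all promoter OCRs were called) and 11 of 23 others (47.3% of all others). All 4 *Per1* OCRs and 4 of 5 *Nr1d1* OCRs were called. *Arntl*, *Per3*, and *Cry1* had 2 called OCRs each and *Dbp* had 1. No OCR of *Clock*, *Per2*, *Cry2*, or *Nr1d2* was called in this test. The share of clock gene OCRs that differed was thus near the background. The genes without a call had only 1 or 2 OCRs each, and the spread of the calls over the genes was not tested. In 17 alternative fits, 6 of the 15 calls were kept in every fit: *Arntl* -23466, *Per1* -1824, *Per1* -102, *Per3* 37577, *Per3* 38601, and *Nr1d1* 2386 bp. The number called fell to 8 without lung replicate 2.

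**Figure D1:**
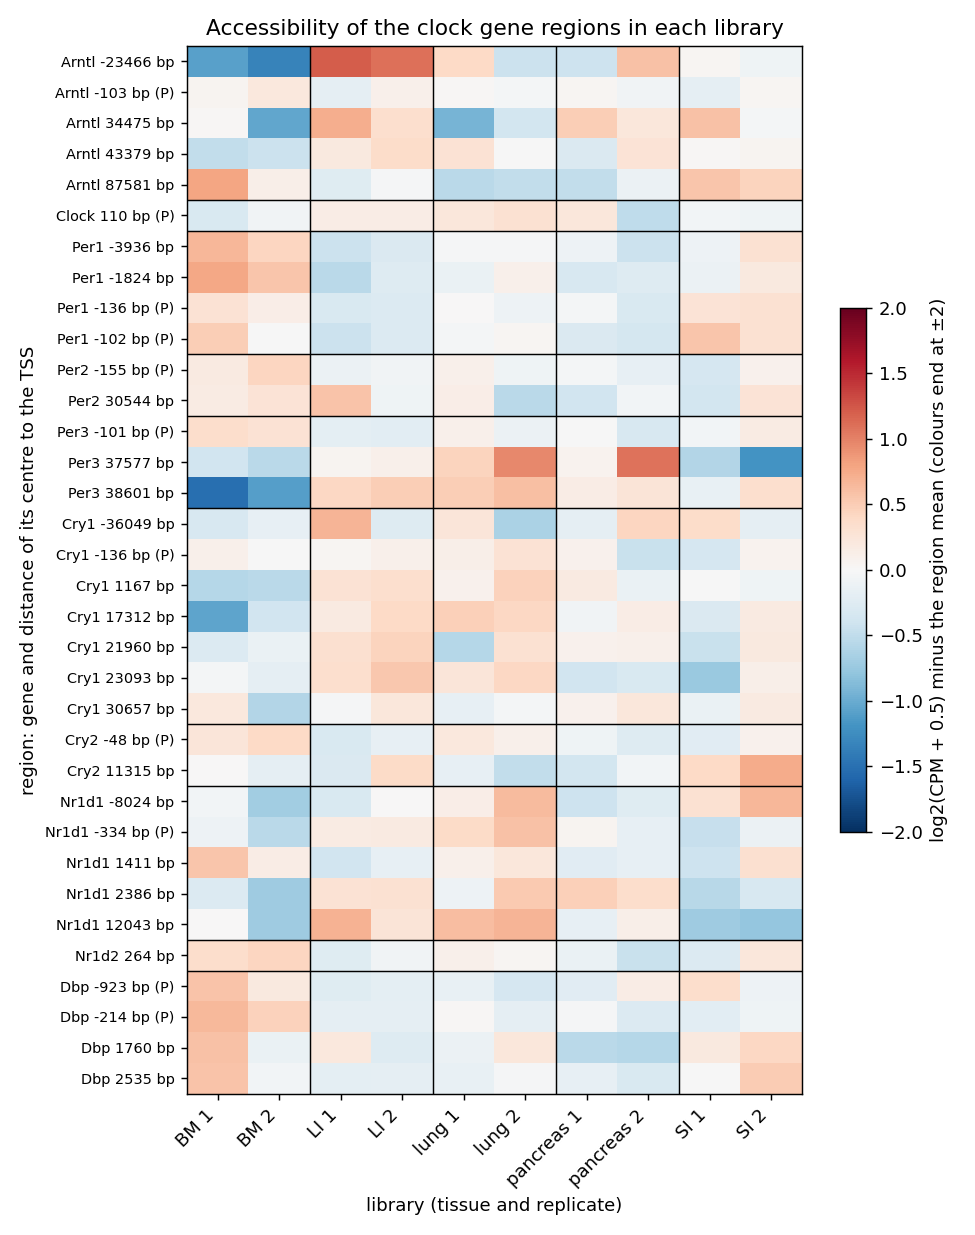
Accessibility of the 34 clock gene OCRs (rows, with promoter OCRs marked P and the distance of the centre from the nearest TSS of the gene) in the 10 libraries (columns), as log2(CPM + 0.5) minus the mean of the row. The deepest blues include *Arntl* -23466 bp and *Per3* 38601 bp in both BM libraries, the deepest reds include *Arntl* -23466 bp in both LI libraries, and the *Per1* -3936, *Per1* -1824, and *Dbp* -214 bp rows are red in both BM libraries.

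Against the mean of the other 4 tissues, BM was higher at 8 of the 34 OCRs (14.9% of all OCRs) and lower at 5 (17.0%). LI was higher at 2 (8.80%) and lower at 0 (1.27%). Lung was higher at 4 (6.53%) and lower at 0 (7.03%). Pancreas was higher at 0 (8.27%) and lower at 1 (2.11%), and SI was higher at 3 (11.8%) and lower at 3 (10.2%). A tissue-specific OCR (TS OCR), which had to exceed all 4 other tissues pairwise at an unadjusted p under 0.05, was found 4 times, and 11.3% of all OCRs were TS OCRs. These were *Per1* -3936, *Per1* -1824, and *Dbp* -214 bp in BM and *Arntl* -23466 bp in LI. None of the 4 remained a TS OCR in each of the 17 alternative fits, and 1 was left without lung replicate 2.

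*Per1*, a repressor of the loop that also responds within minutes to hours to hormones and stress signals, gave the most uniform picture. Its OCR at -3936 bp was the most accessible of the 34, at 137 CPM on average, or 263 CPM per kb of OCR. It was at 211 and 178 CPM in BM, 123 and 164 in SI, 131 and 130 in lung, 98.0 and 109 in LI, and 124 and 98.7 in pancreas. Both BM libraries thus lay above the 8 others, with SI 2 nearest to them. Pairwise, BM was above LI, pancreas, and lung (adjusted p = 0.00266, 0.00808, and 0.0476). It was not separated from SI after adjustment (0.44, adjusted p = 0.109). BM was higher than the mean of the others by 0.68 on the log2 scale (SE 0.15, adjusted p = 0.00242), and the tissue difference had an adjusted p of 0.00722. Both calls were lost without BM replicate 1 and when the mean count trend was removed.

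The OCR at -1824 bp, which holds the CRE, showed the same order of tissues. It was at 89.4 and 76.9 CPM in BM, 48.0 and 60.0 in SI, 47.4 and 55.6 in lung, 35.8 and 43.3 in LI, and 41.5 and 43.5 in pancreas. No library of another tissue reached the BM level, which exceeded the mean of the others by 0.84 (SE 0.14, adjusted p = 0.00038). Pairwise, BM was above LI by 1.07, pancreas by 0.97, lung by 0.69, and SI by 0.62, with adjusted p between 0.000725 and 0.0236. The 4 other tissues were not separated at this OCR. LI minus SI, the widest of their differences, was -0.45 (95% interval -0.85 to -0.04, adjusted p = 0.163).

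Nearer to the gene, SI had the highest mean, with BM next to it. The promoter OCR at -136 bp was at 82.7 and 74.2 CPM in BM, 81.5 and 83.3 in SI, 68.1 and 62.8 in lung, 54.7 and 56.0 in LI, and 65.3 and 54.6 in pancreas. BM and SI overlapped, and both lay above every library of the other 3 tissues. Its tissue difference was close to the threshold (adjusted p = 0.0464) and was lost in 12 of 17 alternative fits. The OCR at the internal promoter, -102 bp from a second TSS and 1101 bp downstream of the first, was at 38.2 and 32.2 CPM in SI, 36.6 and 25.6 in BM, 25.1 and 26.5 in lung, 19.0 and 21.4 in LI, and 21.1 and 20.1 in pancreas. SI was higher there than the mean of the others by 0.55 (SE 0.16, adjusted p = 0.0209, lost without lung replicate 1 or SI replicate 1), and BM and SI were not separated (adjusted p = 0.575).

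**Figure D2:**
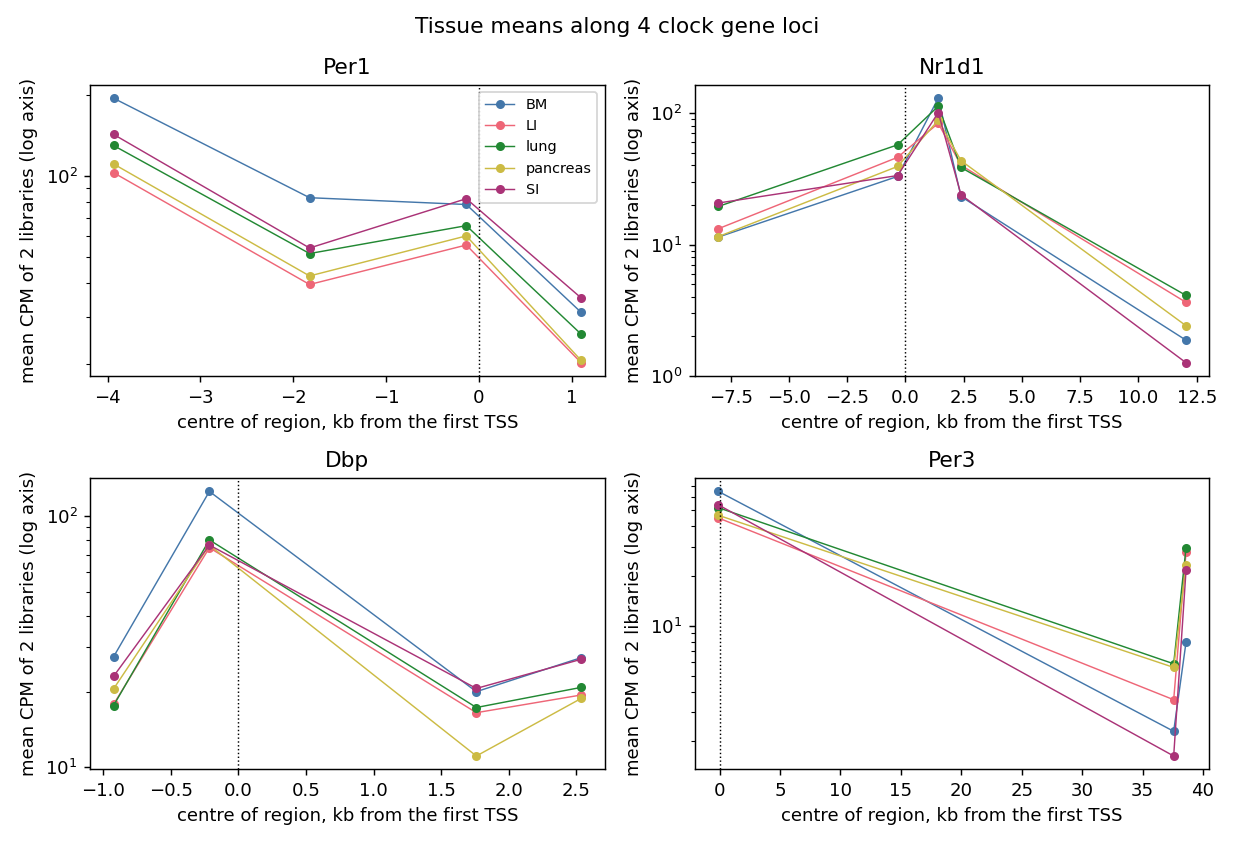
Mean CPM of the 2 libraries per tissue (log axis) at each OCR of *Per1*, *Nr1d1*, *Dbp*, and *Per3*, by the distance of the centre from the first TSS in kb. Lines only join the OCRs of a tissue, and the BM line is uppermost at both upstream *Per1* OCRs and at the *Dbp* promoter and falls to 7.98 CPM at *Per3* 38601 bp, where the others lie between 21.8 and 29.7.

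*Per2*, the other light-responsive repressor, had a strong promoter OCR that was not called. It was at 138 and 164 CPM in BM, 95.8 and 129 in SI, 131 and 115 in lung, 112 and 116 in LI, and 118 and 109 in pancreas. BM lay above the others in both libraries, by 0.39 (95% interval 0.08 to 0.69, adjusted p = 0.0529), while the tissue difference had an adjusted p of 0.23. The intronic OCR at 30544 bp, whose nearest TSS is that of *Hes6*, had 2.62 to 6.28 CPM with no tissue apart from the other 4 (adjusted p = 0.618).

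*Per3* differed between its ends. The promoter OCR at -101 bp was at 66.6 and 63.3 CPM in BM and between 41.6 and 57.9 in the other 8 libraries. BM was thus the highest without overlap, by 0.40 (SE 0.14, adjusted p = 0.0392), but the call was lost in 10 of 17 alternative fits and the tissue difference was not called (adjusted p = 0.124).

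At 38601 bp, at the end of the last intron of *Per3*, the order was turned around. This OCR was at 6.80 and 9.16 CPM in BM, 18.2 and 25.5 in SI, 28.5 and 30.9 in lung, 27.1 and 28.7 in LI, and 22.3 and 24.2 in pancreas. BM was lower than each of the others with no overlap. Against their mean the log2 difference was -1.67 (95% interval -2.10 to -1.25, adjusted p = 1.92e-05), and the tissue difference had the smallest adjusted p of the 34 OCRs (0.000106). The 4 other tissues were not separated from each other, with the widest gap of 0.44 between lung and SI (adjusted p = 0.182). Its neighbour at 37577 bp was weaker, with 2.07 and 1.18 CPM in SI, 2.45 and 2.16 in BM, 3.49 and 3.65 in LI, 4.74 and 7.04 in lung, and 3.53 and 7.66 in pancreas. SI was lowest there (log2 difference -1.33, SE 0.36, adjusted p = 0.0138), and lung was higher by 1.02 (SE 0.30, adjusted p = 0.0314, lost in 5 of 17 alternative fits). Both OCRs lie in intron 21 with their nearest TSS at *Uts2*, 8967 and 9991 bp away, so the gene they act on is not given by position.

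**Figure D3:**
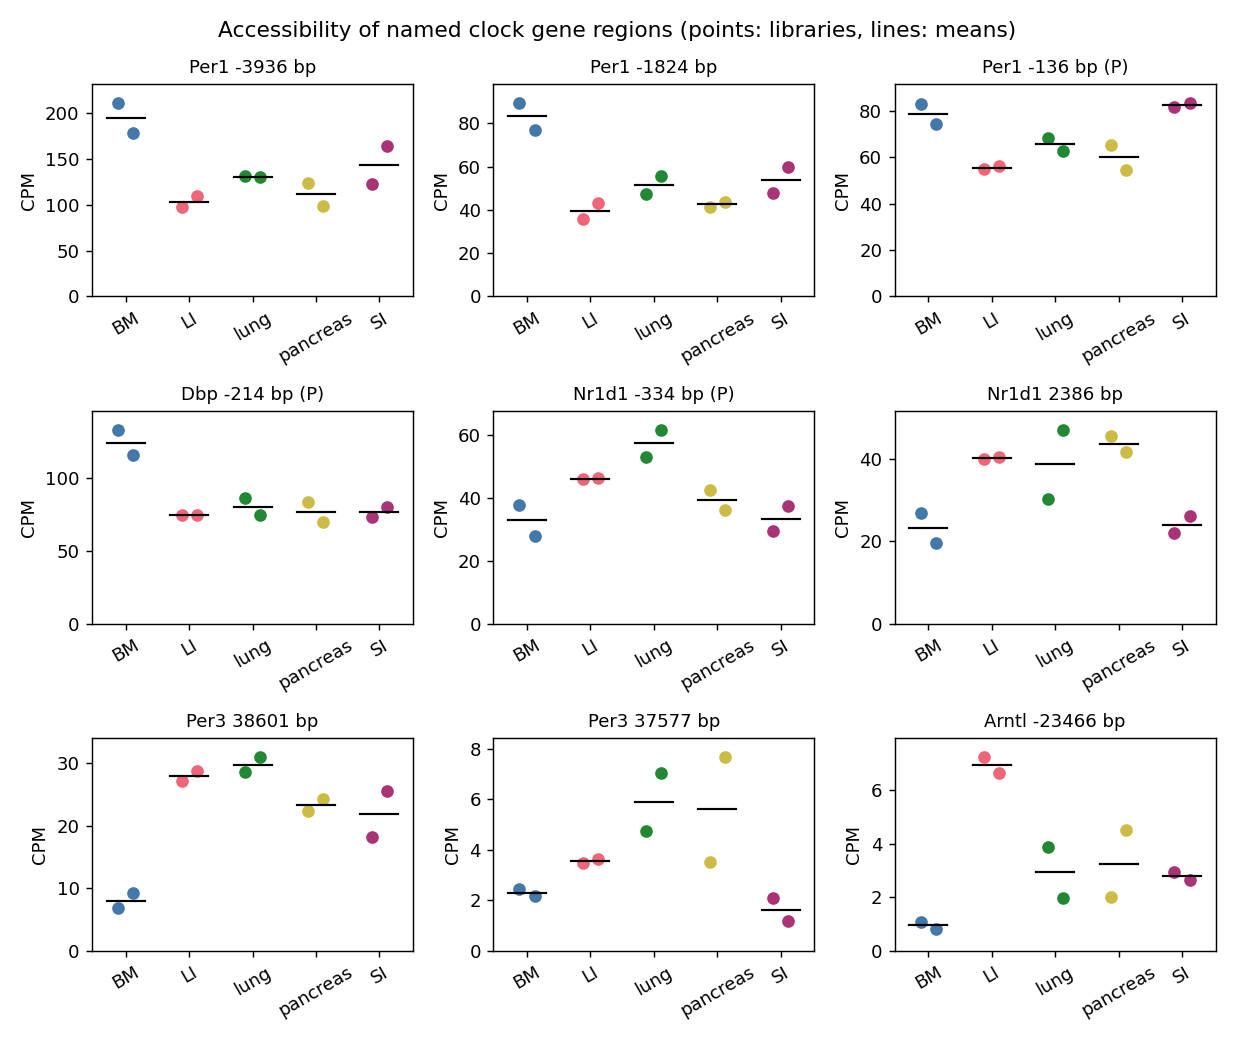
CPM of 9 clock gene OCRs in each library (points) with the mean of each tissue (lines), from 0 upward. Both BM points stand above all others at *Per1* -3936 bp, *Per1* -1824 bp, and *Dbp* -214 bp and below all others at *Per3* 38601 bp and *Arntl* -23466 bp, where the LI points are the highest at 7.24 and 6.65 CPM.

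The cryptochromes are the partners of the PER proteins in repression. The *Cry1* promoter OCR was at 70.0 and 64.9 CPM in BM, 51.6 and 68.3 in SI, 71.0 and 79.6 in lung, 67.1 and 69.7 in LI, and 69.1 and 47.5 in pancreas, and no tissue difference was called (adjusted p = 0.488). In intron 1, the OCR at 1167 bp was at 8.51 and 8.70 CPM in BM and between 11.8 and 18 elsewhere. BM was lower there without overlap (log2 difference -0.74, SE 0.19, adjusted p = 0.00881), although this call was lost without either BM library and when the GC and width trend was removed (-0.46, adjusted p = 0.0903). At 17312 bp BM had 0.783 and 1.56 CPM against 1.69 to 3.21 elsewhere, from 16 to 111 counts per library. BM was lower there (log2 difference -1.11, SE 0.39, adjusted p = 0.0372), a call lost in 8 of 17 alternative fits. The OCR at 23093 bp was at 15.8 and 14.2 CPM in BM, 9.48 and 17.6 in SI, 19.2 and 21.9 in lung, 20.7 and 23.8 in LI, and 12.4 and 13.1 in pancreas. Its tissue difference had an adjusted p of 0.0485 and was lost in 9 alternative fits, and no pair of tissues passed the threshold (LI minus pancreas 0.81, adjusted p = 0.123). The remaining *Cry1* OCRs at -36049, 21960, and 30657 bp had adjusted p between 0.474 and 0.923.

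The *Cry2* promoter OCR at -48 bp was at 104 and 116 CPM in BM, 75.3 and 93.1 in SI, 102 and 94.8 in lung, 70.9 and 78.4 in LI, and 83.0 and 73.2 in pancreas. BM was the highest, with lung 1 next to it at 102 CPM, and exceeded the mean of the others by 0.40 (SE 0.14, adjusted p = 0.0359). The call was lost in 9 of 17 alternative fits, and the tissue difference missed the threshold (adjusted p = 0.0664). The OCR at 11315 bp, in intron 4 and shared with the overlapping gene *D930015M05Rik*, was at 7.94 and 10.3 CPM in SI against 4.06 to 7.91 elsewhere, and SI was higher by 0.77 (SE 0.23, adjusted p = 0.0243, lost in 3 of 17 alternative fits).

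Of the activators, *Arntl* had a promoter OCR that was level across the tissues. It was at 117 and 130 CPM in BM, 98.8 and 115 in SI, 114 and 109 in lung, 99.4 and 121 in LI, and 116 and 107 in pancreas. The highest library of each tissue lay between 114 and 130 CPM (adjusted p = 0.832), and the 95% interval of the BM difference ran from -0.12 to 0.47. The OCR at -23466 bp was far weaker and differed most. It was at 7.24 and 6.65 CPM in LI, 2.00 and 4.53 in pancreas, 3.88 and 1.99 in lung, 2.94 and 2.65 in SI, and 1.08 and 0.828 in BM, from 18 to 153 counts per library. LI was the highest and BM the lowest without overlap, by 1.64 (SE 0.31, adjusted p = 0.00267) and -1.94 (SE 0.41, adjusted p = 0.00208), and both calls were kept in every alternative fit. Pairwise, BM minus LI was -2.86 (adjusted p = 0.000354), but LI was not separated from lung, SI, or pancreas after adjustment (adjusted p = 0.0689, 0.0674, and 0.204).

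The 3 intronic *Arntl* OCRs were also weak. At 87581 bp, in intron 12 and nearer to the TSS of *Btbd10*, SI had 6.84 and 6.30 CPM and BM 8.17 and 4.92, against 2.94 to 4.43 in the other 6 libraries, with an adjusted p of 0.0202 for the tissue difference. BM was higher by 0.67 (SE 0.24, adjusted p = 0.0451) in a call lost in 9 of 17 alternative fits. The OCRs at 34475 and 43379 bp, both in intron 2, were not called (adjusted p = 0.0876 and 0.185). *Clock* had its promoter OCR alone, at 25.0 and 29.5 CPM in BM, 29.8 and 29.1 in SI, 36.5 and 38.3 in lung, 34.5 and 34.4 in LI, and 36.3 and 21.8 in pancreas. Lung lay at the top by a small margin and no difference was called (adjusted p = 0.336).

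*Nr1d1*, the REV-ERB gene that represses *Arntl*, had OCRs with different tissue orders within a few kb. The promoter OCR at -334 bp was at 53.2 and 61.6 CPM in lung, 45.9 and 46.3 in LI, 42.4 and 36.1 in pancreas, 29.5 and 37.4 in SI, and 37.9 and 28.0 in BM. Lung lay above all other libraries, by 0.61 (SE 0.15, adjusted p = 0.0144), a call lost without either lung library. Pairwise, BM minus lung was -0.80 (adjusted p = 0.0104), and lung was above SI by 0.78 (adjusted p = 0.0112). Lung was not separated from LI (adjusted p = 0.354) or from pancreas (0.55, adjusted p = 0.132).

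Inside the gene, the OCR at 1411 bp was the strongest of *Nr1d1* and had its highest mean in BM (148 and 112 CPM), overlapping with lung (109 and 118) and SI (75.7 and 126), and was not called (adjusted p = 0.114). Less than 1 kb further, at 2386 bp, BM (26.9 and 19.6 CPM) and SI (21.9 and 26.0) were the lowest. Lung had 30.3 and 46.9, LI 39.8 and 40.4, and pancreas 45.4 and 41.5. BM was lower (log2 difference -0.62, SE 0.19, adjusted p = 0.0196) and so was SI (-0.56, SE 0.19, adjusted p = 0.0399, lost in 8 of 17 alternative fits), and the tissue difference had an adjusted p of 0.00701. The BM call was lost, at -0.41 in both fits, with the GC and width trend removed (adjusted p = 0.0897) and without BM replicate 2 (adjusted p = 0.255). BM and SI did not separate (adjusted p = 0.91), nor did the 3 tissues above them (adjusted p between 0.72 and 0.915).

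Upstream, at -8024 bp, SI (18.1 and 23.3 CPM) and lung (16.0 and 22.9) were above BM (14 and 8.79), pancreas (10.8 and 12.2), and LI (11.7 and 14.7), and SI was higher by 0.61 (SE 0.20, adjusted p = 0.0406, lost in 7 of 17 alternative fits). The OCR 12043 bp downstream, inside the convergent gene *Thra*, was at 2.45 and 1.29 CPM in BM, 1.30 and 1.22 in SI, 4.0 and 4.2 in lung, 4.27 and 3.0 in LI, and 2.12 and 2.70 in pancreas, so that SI overlapped with BM and lung with LI. SI was lower than the mean of the others (log2 difference -1.17, SE 0.36, adjusted p = 0.0282, lost without either SI library) and lung higher by 0.95 (SE 0.30, adjusted p = 0.0475, lost in 7). *Nr1d2*, which encodes REV-ERB beta, had its only OCR at 264 bp in exon 1. This OCR reaches the TSS, but its centre lies beyond the limit of 100 bp, so it was not counted as a promoter OCR. It was at 124 and 130 CPM in BM, 80.4 and 113 in SI, 104 and 99.7 in lung, 82.1 and 92.4 in LI, and 88.6 and 70.8 in pancreas. BM was the highest without overlap, by 0.49 (SE 0.15, adjusted p = 0.0209), in a call lost in 6 of 17 alternative fits, and the tissue difference missed the threshold (adjusted p = 0.0637).

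*Dbp*, an output gene of the loop, had its largest OCR at the promoter. This OCR, at -214 bp, was at 133 and 116 CPM in BM, 73.0 and 80.0 in SI, 86.0 and 74.5 in lung, 74.6 and 74.8 in LI, and 83.3 and 69.6 in pancreas. BM stood apart from the other 8 libraries, which lay together. It was higher by 0.69 (SE 0.14, adjusted p = 0.00114), and pairwise by 0.63 to 0.74 with adjusted p between 0.0059 and 0.0193. Between the 4 other tissues the widest difference, LI minus lung, was -0.10 (95% interval -0.48 to 0.28). The call of BM as higher was kept in all 17 alternative fits, although the difference was 0.33 (adjusted p = 0.0422) with the mean count trend removed, while the tissue difference (adjusted p = 0.00843) was lost without BM replicate 1 and when the mean count trend was removed.

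The other *Dbp* OCRs moved less. At -923 bp, inside the neighbouring gene *Car11*, BM had 31.1 and 23.8 CPM against 16.4 to 26.7 elsewhere, overlapping with SI, and was higher by 0.49 (SE 0.18, adjusted p = 0.0437) in a call lost in 8 of 17 alternative fits. At 1760 bp, in exon 2, pancreas had 11.2 and 11.0 CPM against 13.8 to 25.0 elsewhere and was lower (log2 difference -0.73, SE 0.23, adjusted p = 0.048), in a call lost in 6. At 2535 bp BM 1 (33.1 CPM) and SI 2 (31.7) were high and their replicates (21.4 and 22.1) were not, and no difference was called (adjusted p = 0.16).

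**Figure D4:**
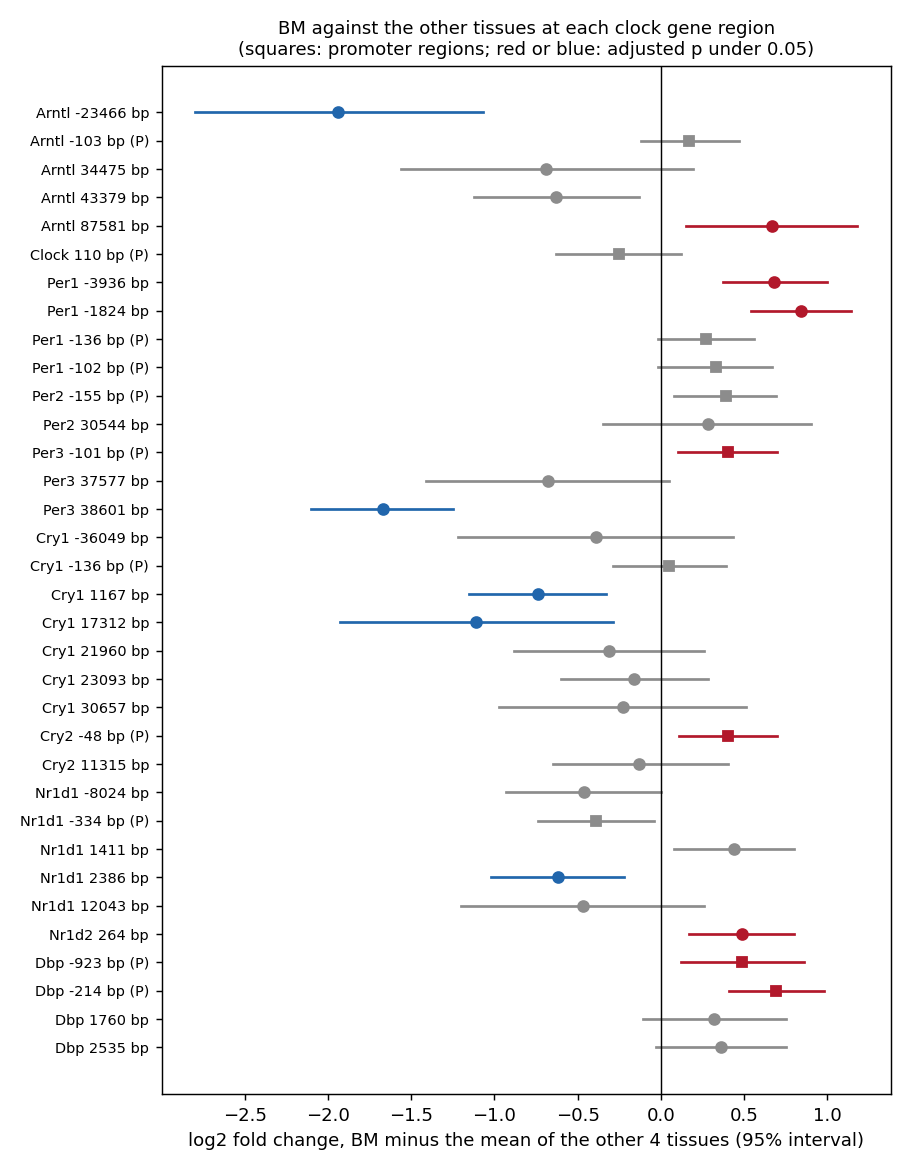
Log2 fold change of BM minus the mean of the other 4 tissues, with its 95% interval, for the 34 clock gene OCRs (squares for promoter OCRs, circles for others). Red marks the 8 OCRs called higher and blue the 5 called lower in BM at an adjusted p under 0.05, and grey marks the rest.

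The median direction in BM went with the class of OCR. Of the 11 clock gene promoter OCRs, BM was called higher at 4 (36.4%) and lower at 0. Of the 23 others, BM was called higher at 4 (17.4%), among them *Nr1d2* 264 bp, and lower at 5 (21.7%). Over all OCRs of both classes, 14.9% were called higher and 17.0% lower in BM. These shares over all OCRs were not taken by class, so the counts have no background of their own class. BM minus the other tissues had a median of 0.33 over the 11 clock gene promoter OCRs, 9 of them above 0, and of -0.31 over the 23 others, 8 of them above 0. Over all promoter OCRs the median was 0.25 with 73.1% above 0, and over all other OCRs it was -0.09 with 44.6% above 0. BM had the highest level at 6 of the 11 clock gene promoter OCRs and at 52.6% of all promoter OCRs. The clock gene promoters thus followed the same direction as promoters in general in these libraries. The low *Klrg1* level, the gate, and the preparation moved with BM, and their part in these differences was not tested. In pancreas, 0 of 11 clock gene promoter OCRs were above 0, with a median of -0.18 against -0.16 over all promoter OCRs. In LI, 3 of 11 were above 0, with a median of -0.23 against -0.15.

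The size of the BM shift depended on the scaling. For clock gene promoters the BM median was 0.24 with library size alone, 0.34 with DESeq2 size factors, 0.18 with the GC and width trend removed, and -0.04 with the mean count trend removed. For all promoter OCRs it was 0.17, 0.27, 0.14, and 0.15 in the same fits. Of these fits, removal of the mean count trend alone turned the sign at clock gene promoters. In that fit the other clock gene OCRs had a BM median of -0.08, near that of the promoters. With library size alone the median over all OCRs was 0.20 in SI, 0.18 in lung, -0.08 in BM, -0.11 in LI, and -0.15 in pancreas, against medians between -0.02 and 0.03 as reported. The number of clock gene OCRs called higher in BM was 8 as reported, 3 with library size alone, 10 with DESeq2 size factors, 5 with the GC and width trend removed, and 4 with the mean count trend removed. *Per1* -1824 and *Dbp* -214 bp were called higher in BM in all of them, and *Per3* 38601 and *Arntl* -23466 bp were called lower in all of them.

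**Figure D5:**
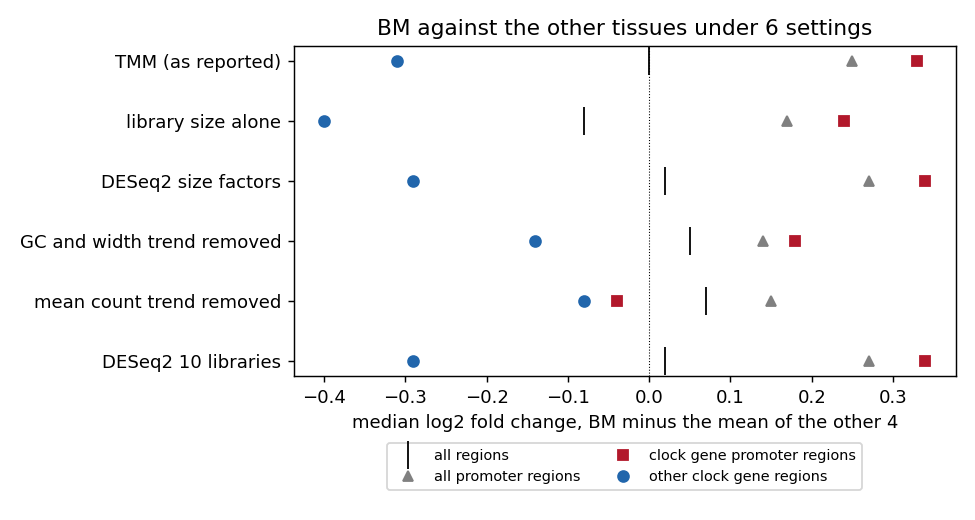
Median log2 fold change of BM minus the mean of the other 4 tissues over all OCRs (bars), all promoter OCRs (triangles), the 11 clock gene promoter OCRs (squares), and the 23 other clock gene OCRs (circles) under 6 settings. The squares lie to the right of the triangles except where the mean count trend is removed, where they fall to -0.04.

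Replicates of a tissue differed by a median of 0.18 on the log2 scale at clock gene promoters, where the range over the 5 tissue means had a median of 0.56. At the other clock gene OCRs these values were 0.27 and 0.87. All promoter OCRs had 0.20 and 0.63, and all other OCRs 0.28 and 0.96. A range over 5 means tends to exceed a gap between 2 libraries even without a tissue difference. Gaps are thus comparable with gaps, and ranges with ranges. Clock gene promoters held 21.3 to 123 CPM, whereas the other OCRs ranged from 2.30 to 137 CPM, so the precision differs widely between members.

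Of 24 further genes of the clock pathway, which take in E-box and D-box factors, ROR receptors, kinases, ubiquitin ligases, and cofactors, 159 OCRs were tested and 73 were called for a tissue difference (45.9%, against 44.2% of all OCRs). BM was higher at 29 of them (18.2%, against 14.9% of all OCRs) and lower at 26 (16.4% against 17.0%). LI was higher at 12 (7.55% against 8.80%) and lower at 2 (1.26% against 1.27%), and lung was higher at 14 (8.81% against 6.53%) and lower at 12 (7.55% against 7.03%). Pancreas was higher at 7 (4.4% against 8.27%) and lower at 2 (1.26% against 2.11%), and SI was higher at 12 (7.55% against 11.8%) and lower at 22 (13.8% against 10.2%). *Rora*, which encodes a receptor that activates *Arntl* through ROR elements and is needed for ILC2 development, held 53 of the 159 OCRs and 30 of the 73 calls. Its strongest call was at chr9:69174630-69175169, -114942 bp from the nearest of the *Rora* TSSs, which need not be the first. This OCR was lower in SI (2.12 and 2.06 CPM) than in pancreas (14.5 and 13.9), LI (9.07 and 7.91), and lung (8.59 and 9.16). BM was near SI there, at 3.23 and 3.08 CPM.

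The next calls by p-value belonged to 5 other genes. *Nampt*, the enzyme of NAD synthesis whose product feeds back on the clock through SIRT1, had an OCR at 28031 bp with 13.6 and 9.47 CPM in LI and at most 2.86 in any other library. *Hlf*, which encodes a D-box factor related to DBP, was lower in SI at -73013 bp (9.15 and 10.8 CPM) than in every other library (14.7 to 50.6). *Fbxw11* and *Fbxl21*, both encoding ubiquitin ligase subunits, had OCRs at 81170 and -16605 bp that were lower in BM, with log2 differences of -1.95 and -1.67. *Csnk1d*, a kinase that phosphorylates PER proteins, had an OCR at 10471 bp that was higher in BM by 1.8, with 12.6 and 6.86 CPM against at most 4.38 elsewhere.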

How the data were processed

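Per the labels and the methods of the study, the authors checked the reads with FastQC 0.11.9, mapped them to mm10 with Bowtie2 2.2.9, kept uniquely mapped reads, called peaks with MACS2 2.1.1 in each library, kept peaks found in both replicates, merged them over the 5 tissues, and deposited the raw read counts per merged OCR and library, without normalization. Removal of duplicates, filters on mitochondrial or blacklisted regions, and a shift for the transposase are not given in the sources used here, and duplicates would make counts look more precise than they are.

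Coordinates were checked against RefSeq GRCm38, where all 21 chromosomes of the table were found, and curated transcripts gave the TSSs, genes, and the 9631 promoter OCRs. Sequences were read from the same genome. OCRs with at least 1 count were fitted with edgeR 4.0.16 (TMM, glmQLFit, glmQLFTest; R 4.3.3), on all 10 libraries at once with tissue as the factor. Contrasts were each tissue against the mean of the other 4 and the 10 pairs of tissues. P-values were two-sided and adjusted by Benjamini-Hochberg over all 49981 OCRs per contrast. CPM used TMM library sizes. The test was tested on simulated data. The clock genes, the list of 24 further genes, and the motifs were chosen with earlier results of these data known. Named OCRs were the strongest promoter OCR and the OCR with the smallest p of each clock gene, and the smallest p of 6 further genes. The other clock gene OCRs are described as members.

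Alternatives were library size or DESeq2 1.42.0 size factors in place of TMM, DESeq2 tests, a filter of 10 counts in at least 2 libraries, the replicate number as a block, removal of loess trends (span 0.3), fitted either on GC content with width or on mean count, and leaving out every library once. These are the 17 alternative fits. Membership by predicted transcripts was added after the data were seen. The labels do not say whether the 2 libraries of a tissue came from separate sorts beyond naming them biological duplicates of pooled mice, so p-values cover the spread between those pools.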

Additional observations from a re-analysis of the deposited data

How the results depend on the processing

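With 2 libraries per tissue, a left-out library leaves a tissue with a lone library that is assumed to vary like the others. OCRs higher in BM numbered 8 as reported, 3 with library size alone, 5 with the GC and width trend removed, and 4 with the mean count trend removed. TS OCRs numbered 4 as reported, 2 with the mean count trend removed, and 2 when each contrast was adjusted. Among OCRs inside a gene or at its promoter 1 was left, *Dbp* -214 bp. *Per1* -3936, *Per1* -1824, and *Arntl* -23466 bp lie outside genes and promoters, so that restriction removes them by definition. Leaving out 1 library gave 8 to 18 clock gene OCRs with a tissue difference (15 as reported, 8 without lung replicate 2), 2 to 9 higher in BM (2 without BM replicate 1, 3 without lung replicate 2, 4 without BM replicate 2, LI replicate 1, or lung replicate 1), 3 to 7 lower in BM (3 without either BM library), 1 to 5 TS OCRs (1 without lung replicate 2), and 55 to 88 of the 159 OCRs of further clock genes. Over the 5 tissues, calls above 0 numbered 17 as reported and 6 to 19 with a library left out, and calls under 0 numbered 9 and 5 to 12. The BM difference turned at *Arntl* -103 bp to -0.02 with the GC and width trend removed and to -0.26 with the mean count trend removed, and at *Per2* -155 bp to -0.05 with the latter. None of these 3 values was called. The cause of these changes was not tested.

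Deviations of same-numbered libraries correlated at -0.218 to 0.196 over the 10 pairs of tissues. These values cannot tell whether same-numbered libraries shared mice or a sort, since depth also differs between replicates. With the replicate number as a block, 14 of 34 OCRs had a tissue difference, 7 were higher in BM, and 3 were TS OCRs. Precision is limited at the weak OCRs, such as *Arntl* -23466 bp with 18 counts in BM 2.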
